A study of Homo sapiens with 12 samples.

Results

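Gene expression with 2 hairpins against the same target was compared in MIA PaCa-2, an established cell line from a human pancreatic adenocarcinoma. The hairpins, sh1209 and sh1319, both target PTK2, the gene of focal adhesion kinase (FAK), and each was measured on 2 arrays. The probes described are those with a detection p-value under 0.05 in both arrays of at least 1 of the 2 groups, with spike-in controls left out. They were 16185 of the 47228 gene probes on the array. Of these, 13304 (82.2%) were detected in all 4 arrays, 1749 in 3 of the 4, 647 in both sh1209 arrays and no sh1319 array, and 485 in both sh1319 arrays and no sh1209 array.

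The study knocked down FAK in MIA PaCa-2 and Capan-1, another pancreatic cancer line, and measured RNA on Illumina HumanHT-12 v4 arrays, which carry oligonucleotide probes on beads. There were 12 arrays in all, 2 for each of 6 groups. Every group carried a hairpin in the doxycycline-inducible vector Tet-pLKO-puro, and every group, the scrambled control shCtrl included, was kept in puromycin (3.5 ug/ml in the case of MIA PaCa-2) and induced with doxycycline at 50 ng/ml over 96 hours. The labels do not say which of sh1209 and sh1319 is shFAK-1, whether the infected cells were clones, or whether separate cultures gave the 2 arrays of each group, so p-values measure the spread between arrays, which may be technical. The Capan-1 label of the second hairpin reads shFAK1319 and was taken as sh1319.

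FAK is a tyrosine kinase at focal adhesions, the sites where integrins tie the actin skeleton to the extracellular matrix. It relays signals from integrins and growth factor receptors to SRC, ERK and YAP, and is known in pancreatic cancer for its part in adhesion, migration and survival. A hairpin is processed to a short RNA that guides AGO proteins to a matching transcript, and hairpins of different sequence to 1 target share that target and differ in the other transcripts they can match.

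Levels are background-corrected, quantile-normalized intensities on the log2 scale. A difference is the mean level with sh1209 minus that with sh1319, given with its standard error, so positive values are higher with sh1209 and negative values higher with sh1319. The threshold was an adjusted p under 0.05 by limma over all 24207 probes tested. An offset of 16 in the background correction understates the differences of dim probes. The 4 arrays had median intensities of 87.7 to 96.4 and 16259 to 17451 detected probes each, and levels over the tested probes correlated at 0.9919 between the sh1209 arrays, 0.9925 between the sh1319 arrays, and 0.968 to 0.969 across the hairpins. The MIA PaCa-2 label was checked against markers. VIM, KRT8 and KRT18 were detected in all 4 arrays and ZEB1 and CDH2 were not, while the summed intensity of 14 glandular markers lay between 310.9 and 340.3 here and between 53269.4 and 57095.2 in Capan-1. Of the markers of other cell types, COL3A1 of 8 fibroblast markers, CD68, LYZ and CD14 of 8 leukocyte markers and 0 of 6 endothelial markers were detected with each hairpin.

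The shared target was measured first. The bright PTK2 probe stood at 7.28 and 7.14 in the sh1209 arrays, at 6.92 and 7.03 in the sh1319 arrays, and at 9.45 and 9.46 in the shCtrl arrays. Both hairpins were below shCtrl on this probe, by -2.24 for sh1209 and -2.48 for sh1319 (adjusted p of 1.5e-07 and 5.2e-08). The hairpins did not overlap, but the difference of 0.24 ± 0.11 did not pass the threshold (adjusted p = 0.17), with a 95% interval from -0.01 to 0.49. In Capan-1 the same probe differed between the hairpins by 1.16 (adjusted p = 6.2e-05). A dim PTK2 probe, at 5.46 and 5.23 with sh1209 and at 4.98 and 4.54 with sh1319, differed by 0.59 ± 0.16 (adjusted p = 0.021). It stood at 5.16 and 4.93 with shCtrl, and neither hairpin differed from shCtrl past the threshold on this probe (adjusted p = 0.25 for each). The lowest level of a detected probe was 4.71 on each shCtrl array, so the dim probe could show little of a knockdown. The call of the dim probe was lost without the first sh1209 array (0.48) and without the second sh1319 array (0.37).

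Many transcripts other than PTK2 differed between the hairpins. Of the 16185 probes, 5433 (33.6%) passed the threshold, 2753 higher with sh1209 and 2680 higher with sh1319, beside 22.6% of all probes tested in either direction, 11.5% higher with sh1209 and 11.2% higher with sh1319. Members with 1 dark hairpin are bound to differ in 1 direction, so counts below are over the 13304 probes detected in all 4 arrays. There, 4496 (33.8%) passed, 2312 higher with sh1209 and 2184 higher with sh1319, with a median difference of 0.02. At a difference of at least 1, that is 2-fold, 1056 passed, and more of them were higher with sh1319 (604) than with sh1209 (452). With each array scaled to its median instead of quantile-normalized, 3472 members passed and the share higher with sh1209 went from 50.7% to 34.7%. The methods' t-test, with its p-values adjusted by the Benjamini-Hochberg method, called 1 probe.

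**Figure D1:**
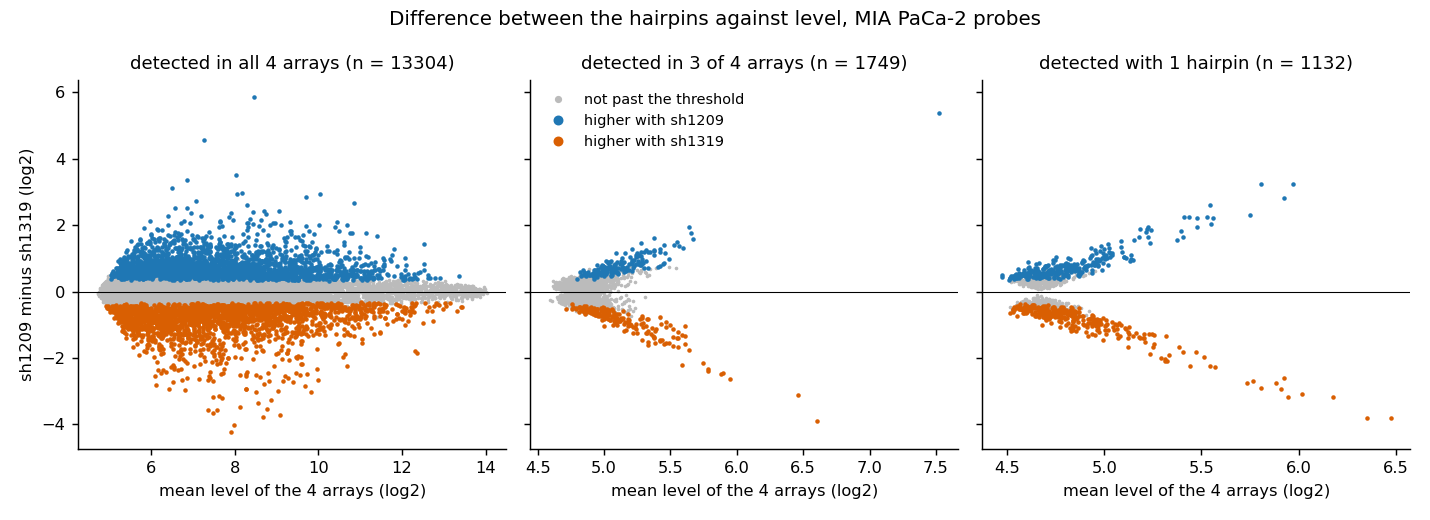
Difference between sh1209 and sh1319 (y axis, log2) against the mean level of the 4 MIA PaCa-2 arrays (x axis, log2, on its own scale in each panel), 1 point a probe, for the 13304 probes detected in all 4 arrays, the 1749 detected in 3 and the 1132 detected with 1 hairpin. Blue and orange points passed the threshold; in the left panel they lie on both sides of 0 at every level, and in the right panel the split by sign follows from how the probes were chosen.

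CALB2 had the largest difference of the probes detected in all 4 arrays. It encodes calretinin, a calcium-binding protein. It stood at 11.44 and 11.37 with sh1209, at 5.41 and 5.65 with sh1319 and at 7.33 and 7.19 with shCtrl, which is a 58.8-fold difference between the hairpins (5.88 ± 0.13, adjusted p = 5.6e-10), with shCtrl between them. A second, dimmer CALB2 probe differed by 0.30 and did not pass, so the size rests on the bright probe. PODXL, which encodes podocalyxin, a sialomucin of the cell surface, stood at 9.59 and 9.50 with sh1209, 5.06 and 4.91 with sh1319 and 6.64 and 6.71 with shCtrl (4.56 ± 0.12, adjusted p = 2.4e-09). Its other probe was detected with sh1209 and not with sh1319.

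For POC1A and ATP6V0E1, sh1319 stood apart and sh1209 lay near shCtrl. POC1A, a centriole protein listed on the array as WDR51A, stood at 9.75 and 9.55 with sh1209, 6.95 and 6.44 with sh1319 and 9.59 and 9.67 with shCtrl. ATP6V0E1, a subunit of the vacuolar proton pump, stood at 11.46 and 11.54, 8.45 and 8.67, and 11.08 and 11.22 in the same order. In these genes the sh1319 arrays lay below all the others, and the sh1209 and shCtrl arrays lay close together. CMBL, a hydrolase, differed by 3.50 and SET, a histone chaperone, by 2.85, with sh1209 above shCtrl and sh1319 below it in both. SNORA5A, a small nucleolar RNA, differed by 3.13, from 8.10 and 8.01 with sh1209 to 5.05 and 4.81 with sh1319, and shCtrl lay near sh1319 at 5.19 and 5.13.

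On the other side, inflammatory and stress-responsive genes and small noncoding RNAs stood among the 8 largest of the genes whose array name matched a current symbol. COXFA4L3, a small mitochondrial protein listed as C15ORF48, stood at 6.05 and 5.55 with sh1209, 10.04 and 10.03 with sh1319 and 8.03 and 7.98 with shCtrl (-4.23 ± 0.15, adjusted p = 2.1e-08). CXCL5, a chemokine that draws neutrophils, stood at 6.79 and 6.79, 10.40 and 10.72, and 9.61 and 9.47 (-3.77 ± 0.14, adjusted p = 2.4e-08). BIRC3, a ubiquitin ligase of NF-kB signalling, stood at 6.84 and 6.92, 10.09 and 10.36, and 9.63 and 9.68 (-3.35 ± 0.12, adjusted p = 2.1e-08). In CXCL5 and BIRC3 the sh1209 arrays were farther from shCtrl than the sh1319 arrays. The opposite held for CEBPD, a transcription factor of the acute phase, at 6.05 and 6.07 with sh1209, 9.31 and 9.11 with sh1319 and 6.72 and 6.63 with shCtrl (-3.15 ± 0.12). ANXA10, an annexin, was not detected with shCtrl and stood at 6.44 and 6.36 with sh1209 and 9.73 and 10.00 with sh1319 (-3.47 ± 0.14). The other 3 were RN7SK (-3.27), RNU6ATAC (-3.17) and SNORD3A (-3.03), which are described with the small RNAs. Another 3 probes with close values (-3.70, -3.57 and -3.55) carry the name AK3L1, which had no match in the RefSeq table and was singled out after its values were seen. SCD, a fatty acid desaturase singled out in the same way, differed by -2.85.

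**Figure D2:**
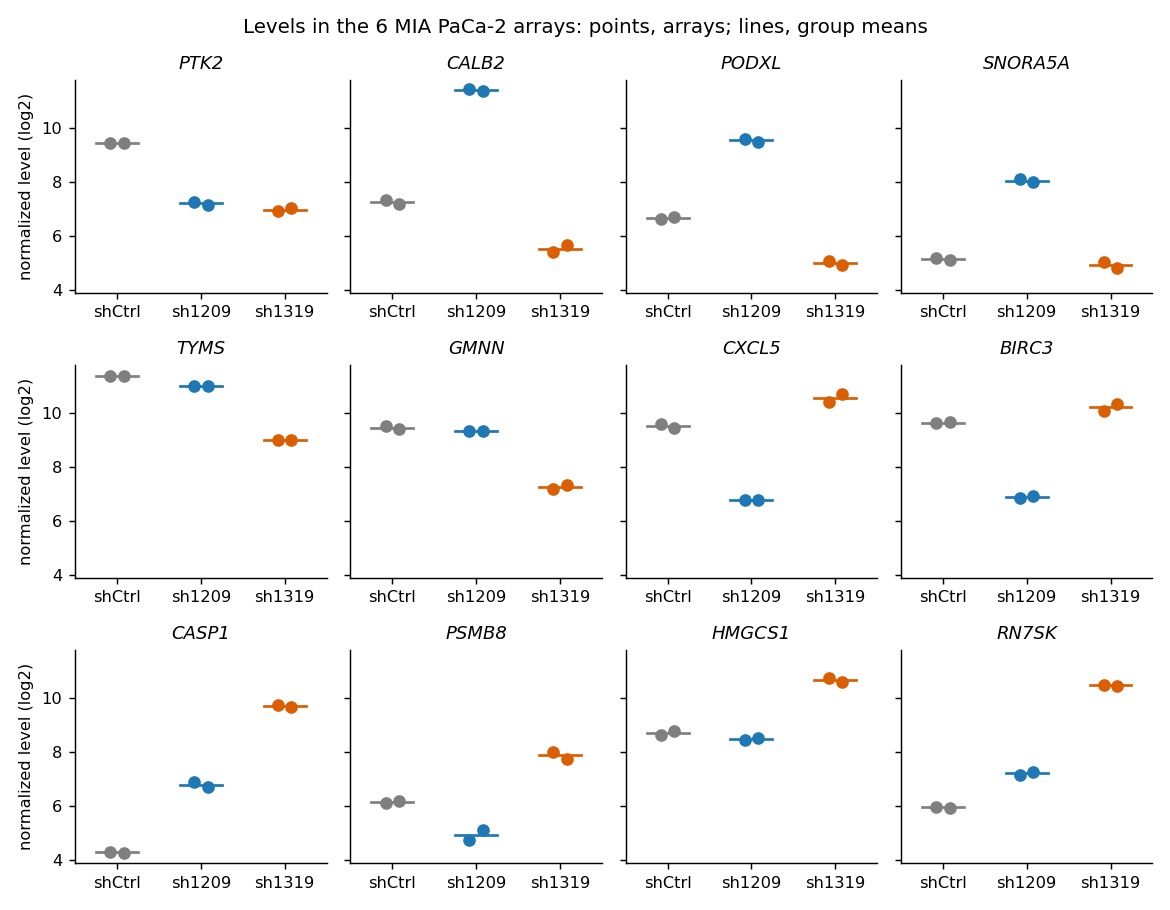
Normalized level (y axis, log2) of 12 genes in the 6 MIA PaCa-2 arrays, 1 point an array and 1 line a group mean of 2 arrays, for shCtrl, sh1209 and sh1319. The 2 hairpins sit together for PTK2, at 6.92 to 7.28, and apart for the other 11 genes, with shCtrl near sh1209 for TYMS and GMNN and near sh1319 for CXCL5 and BIRC3.

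Some transcripts were detected with 1 hairpin only, so the fold is a lower bound, taken against the lowest level of a detected probe on each array. RTN1, a reticulon of the endoplasmic reticulum, stood at 7.35 and 7.52 with sh1209, at least 6.62-fold above sh1319, and was not detected with shCtrl either. NTSR1, the receptor for neurotensin, stood with sh1209 at 7.58 and 7.59, at least 7.37-fold above sh1319, and was also detected with shCtrl at 6.34 and 6.39. TUBB2B, a beta-tubulin, stood at 7.30 and 7.35 with sh1209, at least 6.16-fold above sh1319, while shCtrl was far above both at 10.61 and 10.61. DCDC2, a doublecortin-domain protein, was at least 4.45-fold higher with sh1209. On the sh1319 side, RBM47, an RNA-binding protein, was at least 12.1-fold higher (8.30 and 8.22), with shCtrl between the hairpins at 6.39 and 6.34. GBP1, an interferon-inducible GTPase, was at least 13.1-fold higher (8.42 and 8.33), and was detected in 1 shCtrl array. TNFSF18, a cytokine of the TNF family, was at least 6.06-fold higher and SLC6A12, a betaine and GABA transporter, at least 5.9-fold.

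The genes of 26 lists covered adhesion, growth signalling, the cell cycle, innate immunity and metabolism. They are described by the brightest probe of each gene detected in all 4 arrays, which gave 553 distinct genes, of which 251 passed. Over all 8642 genes detected in this way, 19.0% were higher with sh1209, 18.1% were higher with sh1319, and the median difference was 0.03. With arrays scaled to their medians, the median of all genes moved to -0.09, and the medians of the focal adhesion, protease, epithelial, G1, BCL2 and growth factor lists, all close to 0, turned negative with it.

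**Figure D3:**
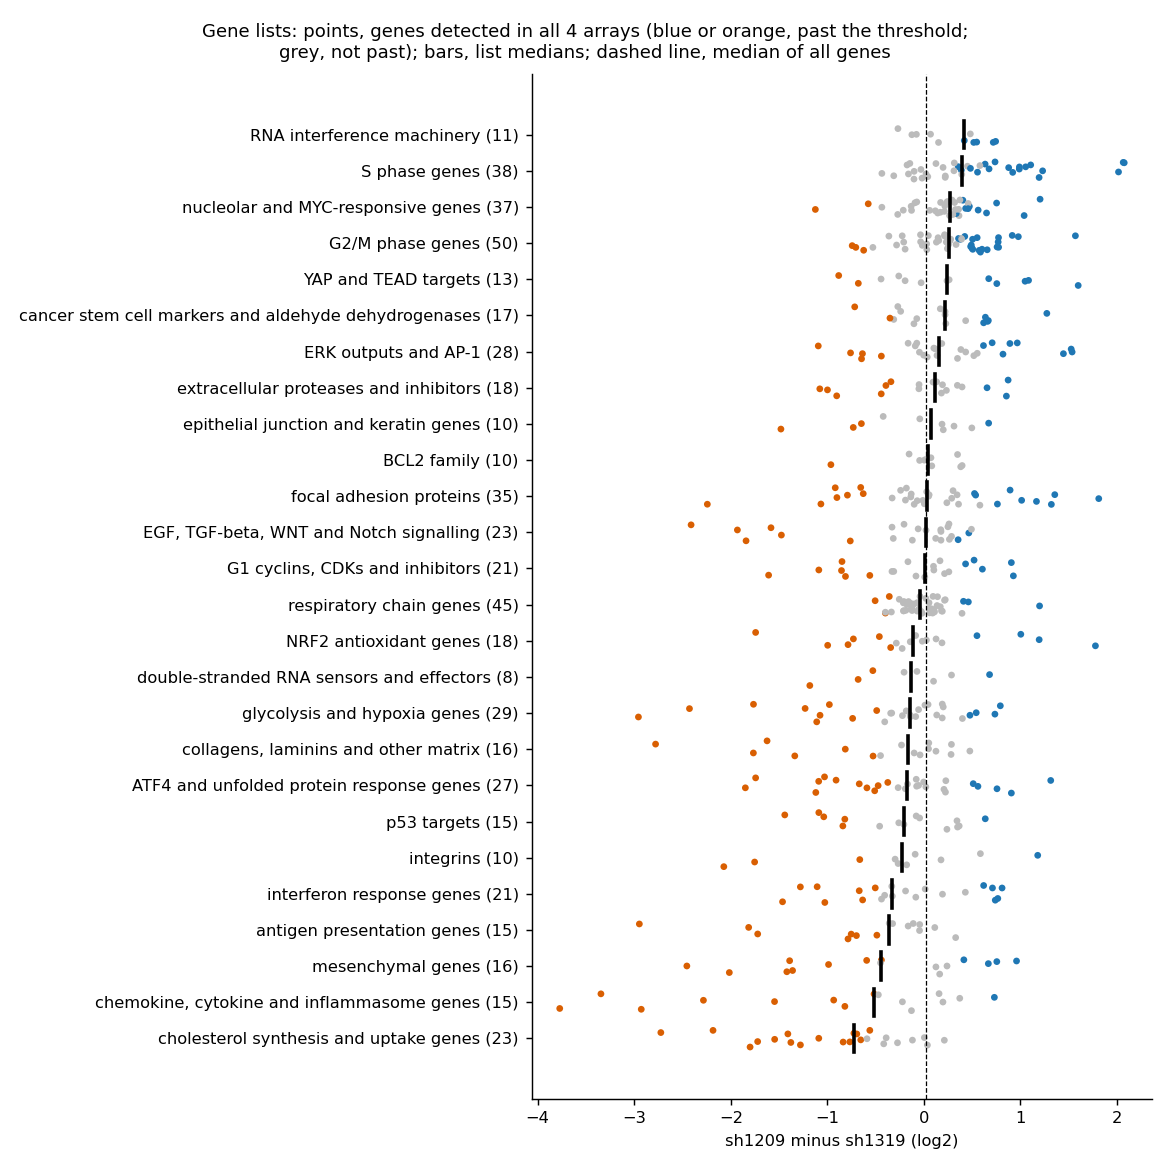
Difference between sh1209 and sh1319 (x axis, log2) for each gene of 26 lists, with the number of genes detected in all 4 arrays after each list's name. Black bars are list medians, taken over the brightest probe of each gene. They run from -0.72 for cholesterol genes to 0.42 for the RNA interference machinery, and the dashed line is the median of all 8642 genes, 0.03.

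Focal adhesion proteins went both ways. Of 35, 9 were higher with sh1209, 7 were higher with sh1319 and 19 did not pass, with a median of 0.03, the same as over all genes. PDLIM1, which links alpha-actinin to kinases, was not detected with shCtrl and stood at 7.77 and 7.87 with sh1209 and at 10.11 and 10.02 with sh1319, a 4.73-fold difference (-2.24 ± 0.12, adjusted p = 2.5e-07). The kindlins were split: FERMT1 was higher with sh1209 (1.81 ± 0.17, adjusted p = 1.6e-05) and FERMT2 higher with sh1319 (-0.92, adjusted p = 0.00063). YES1, a kinase of the SRC family (1.36 ± 0.12), PDLIM7 (1.17) and PXN, the scaffold paxillin (1.01), were higher with sh1209. VCL, which encodes vinculin (-0.79), LIMS1 (-0.90) and ARHGEF7 (-1.07) were higher with sh1319. SRC (-0.24), BCAR1 (-0.19), ILK (0.05) and SH3GL1 (-0.13 ± 0.14, adjusted p = 0.58) did not pass.

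Among integrins, the receptors upstream of FAK, 1 of 10 was higher with sh1209, 3 were higher with sh1319 and 6 did not pass, with a median of -0.22. ITGAV stood at 6.86 and 6.40 with sh1209 and 8.51 and 8.90 with sh1319, and its groups did not overlap (-2.07 ± 0.21, adjusted p = 2.4e-05). ITGA3, a laminin-binding subunit, stood at 6.38 and 6.22 against 8.09 and 8.02 (-1.75 ± 0.15, adjusted p = 8.5e-06), and ITGB5 differed by -0.66. ITGA5, the fibronectin-binding subunit, was higher with sh1209 (1.18 ± 0.18, adjusted p = 0.00049). ITGB1, the beta subunit that both pair with, did not pass on its brightest probe, with arrays that overlapped at 12.34, 12.20, 12.25 and 12.47 (-0.09 ± 0.13, adjusted p = 0.7). It was one of 4 ITGB1 probes, whose differences ran from -0.63 to 0.10 and of which 1 passed.

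Matrix genes leaned to sh1319: 0 of 16 were higher with sh1209, 6 were higher with sh1319 and 10 did not pass, with a median of -0.17. The median was -0.015 without the second sh1319 array, -0.043 without the first sh1209 array, -0.26 without the second sh1209 array and -0.34 without the first sh1319 array, and no gene was higher with sh1209 in any of these. HAS3, a hyaluronan synthase, stood at 7.47 and 7.16 with sh1209 and 10.15 and 10.04 with sh1319 (-2.78 ± 0.15, adjusted p = 2.8e-07). LAMC1, a laminin chain (-1.77 ± 0.14), and COL18A1 (-1.62 ± 0.15) followed. COL1A2, a chain of type I collagen, stood at 9.11 and 9.03 with sh1209 and 10.47 and 10.35 with sh1319, and both were above shCtrl at 6.13 and 6.07 (-1.34 ± 0.11, adjusted p = 7.5e-06). Of the genes for proteases and their inhibitors, 3 of 18 were higher with sh1209 and 6 higher with sh1319. The 6 became 3 without the first sh1209 array or either sh1319 array, and 4 without the second sh1209 array, while the 3 stayed at 3. TIMP1 (0.65) and TIMP2 (0.87), inhibitors of metalloproteases, were among the former, and PLAU (-0.90) and ADAM10 (-1.08 ± 0.19) among the latter. SERPINB5, a serpin, was detected with sh1209 alone, at least 3.57-fold above sh1319, and SERPINB9 likewise at least 2.46-fold. MMP1 and HAPLN1 were not detected in both arrays of either hairpin and so are no members. KLK6 was a member through sh1209 and did not pass (0.47 ± 0.19, adjusted p = 0.1).

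Mesenchymal and contractile genes were uneven: 4 of 16 were higher with sh1209, 8 were higher with sh1319 and 4 did not pass, with a median of -0.44. The 4 became 2 without the first sh1209 array or the second sh1319 array, and 1 with arrays scaled to their medians. With every probe in place of the brightest, 6 of 26 probes were higher with sh1209, 12 were higher with sh1319 and the median was -0.24. The 8 genes higher with sh1319 hold the smooth muscle contractile genes. TAGLN, an actin-binding protein, stood at 7.57 and 7.57 with sh1209, 10.04 and 10.02 with sh1319 and 8.36 and 8.42 with shCtrl (-2.46 ± 0.11, adjusted p = 8e-08). TPM1, a tropomyosin, stood at 7.16 and 7.11 against 9.17 and 9.13 (-2.02 ± 0.11, adjusted p = 1.9e-07). ACTA2 (-1.42 ± 0.11), MYL9 (-1.39 ± 0.18), CNN2 (-1.36), TPM2 (-0.99), CALD1 (-0.59) and MSN (-0.44) were the others. Those higher with sh1209 were DDR2, a collagen receptor (0.96), AXL, a receptor kinase (0.76), CD44 (0.67) and FSCN1, an actin bundler (0.41 ± 0.11, adjusted p = 0.018). The FSCN1 call was lost without the first sh1209 array (0.37) and without the second sh1319 array (0.35). FSCN1 was far above shCtrl with both hairpins, at 11.25 and 11.15 with sh1209 and 10.85 and 10.72 with sh1319 against 7.11 and 7.11. VIM did not pass (0.12). Of 10 junction and keratin genes, KRT8 was higher with sh1209 (0.67 ± 0.15, a call lost without the first sh1209 array or the second sh1319 array, at 0.62 and 0.58) and CLDN1 (-1.48 ± 0.12), MARVELD2 (-0.73) and DSG2 (-0.65) were higher with sh1319, and CDH1 was not detected in both arrays of either hairpin.

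YAP and TEAD, which act on transcription downstream of adhesion, and their usual targets did not go 1 way. WWTR1, which encodes TAZ, stood at 6.96 and 7.27 with sh1209, 5.62 and 5.41 with sh1319 and 6.34 and 6.25 with shCtrl (1.60 ± 0.16, adjusted p = 2.8e-05), and YAP1 differed by 0.67 (adjusted p = 0.0021). Both were higher with sh1209. CCN1 (-0.88) and CCN2 (-0.68), matrix proteins that are much-used readouts of YAP, were higher with sh1319, while MYOF (1.08 ± 0.12), ASAP1 (1.05 ± 0.13) and AXL (0.76) were higher with sh1209. In all, 5 of 13 were higher with sh1209, 2 were higher with sh1319 and 6 did not pass, with a median of 0.24. The median lay between 0.12 without the first sh1319 array and 0.36 without the second, and was 0.14 without the second sh1209 array. The 2 became 1 without the second array of either hairpin, and the 5 became 3 with arrays scaled to their medians.

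Outputs of ERK and AP-1 showed 8 of 28 genes higher with sh1209, 5 higher with sh1319 and 15 that did not pass (median 0.16, or 0.28 without the first sh1209 array). The 5 became 3 without the first sh1319 array or the second sh1209 array. SPRY1, a feedback inhibitor, stood at 9.10 and 8.94 with sh1209 and 7.50 and 7.47 with sh1319 (1.54 ± 0.12, adjusted p = 2.8e-06). EGR1 (1.53 ± 0.15), FOSL1 (1.45 ± 0.15), ETV5 (0.97) and ETV4 (0.89), transcription factors that ERK induces, were higher with sh1209 too. DUSP1, a phosphatase of MAP kinases, stood at 8.19 and 8.22 with sh1209 and 9.20 and 9.39 with sh1319 (-1.09 ± 0.12, adjusted p = 4.2e-05), and JUND (-0.76), IER3 (-0.65), DUSP5 (-0.64) and SPRED1 (-0.44) were also higher with sh1319. MYC (-0.07), JUN (0.19), CCND1 (0.10) and DUSP6 (0.12) did not pass.

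For EGF, TGF-beta, WNT and Notch signalling, 2 of 23 genes were higher with sh1209 and 6 higher with sh1319, with a median of 0.02. The 2 became 0 without the first sh1319 array, without the second sh1209 array or with arrays scaled to their medians, and 1 without the first sh1209 array, and the median turned to -0.05 without the first sh1209 or the second sh1319 array. JAG1, a Notch ligand, stood at 6.36 and 6.04 with sh1209, 8.64 and 8.59 with sh1319 and 7.07 and 7.16 with shCtrl (-2.41 ± 0.19, adjusted p = 4.8e-06). The Notch-responsive repressors HES4 (-1.84 ± 0.13) and HES1 (-0.76) ran the same way, and HEY1 was a member through its detection with sh1319 alone. TGFBR3, a coreceptor for TGF-beta, stood at 8.58 and 8.52 with sh1209 and 10.60 and 10.36 with sh1319, both above shCtrl at 6.04 and 6.23 (-1.93 ± 0.14). EGFR differed by -1.48. DKK1, a secreted WNT inhibitor, was below its shCtrl level of 9.33 and 9.33 with both hairpins, at 5.02 and 4.72 with sh1209 and 6.32 and 6.59 with sh1319 (-1.58 ± 0.13, adjusted p = 7.2e-06). ID1 (0.47) and ID2 (0.35) were higher with sh1209, and TGFB3, a ligand, was detected with sh1209 alone, at least 3.03-fold above sh1319.

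Genes of DNA replication were higher with sh1209. Of 38 S phase genes, 18 were higher with sh1209, 0 were higher with sh1319 and 20 did not pass, with a median of 0.39. TYMS, which makes thymidylate, stood at 11.03 and 11.03 with sh1209, 9.0 and 9.03 with sh1319 and 11.38 and 11.38 with shCtrl, a 4.05-fold difference (2.02 ± 0.11, adjusted p = 3.5e-07). GMNN, which encodes geminin, the inhibitor of origin licensing, stood at 9.33 and 9.36, 7.20 and 7.33, and 9.54 and 9.41 (2.08 ± 0.11, adjusted p = 2.9e-07). UHRF1, which keeps up DNA methylation, stood at 9.30 and 9.34, 7.16 and 7.35, and 8.56 and 8.47 (2.07 ± 0.13, adjusted p = 7.5e-07). In these 3 the sh1319 arrays were far below the others. CDCA7 (1.23 ± 0.14, with another probe at 0.27), RAD51AP1 (1.19), RRM2 (1.11), HELLS (1.05) and the helicase subunits MCM5 (0.99), MCM6 (0.99), MCM4 (0.68) and MCM7 (0.63) followed, whereas PCNA (0.22), CHAF1B (0.13) and CCNE2 (-0.31) did not pass. In RNA from whole cultures, fewer cells of a phase and less RNA per cell cannot be told apart.

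The E2F factors bind promoters of replication genes. The letters TTTCCCGC were searched on both strands in the 250 bases before each start site. They were found for 8 of the 30 S phase members with a promoter in the RefSeq table, beside 1.7% of all 27305 genes there. Of the 8, 6 were higher with sh1209 and 2 did not pass. The 4 windows shown are 3 of those higher with sh1209 and PCNA, which carries the letters and did not pass. They are from RefSeq (GRCh38.p14), on the strand of the gene and 5′ to 3′, with the match in capitals, here in its reverse complement GCGGGAAA.
TYMS, chr18:657589-657646, plus strand: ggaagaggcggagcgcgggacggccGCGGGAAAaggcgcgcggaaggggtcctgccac
UHRF1, chr19:4909462-4909500, plus strand: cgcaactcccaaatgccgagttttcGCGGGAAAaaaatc
CDCA7, chr2:173354782-173354839, plus strand: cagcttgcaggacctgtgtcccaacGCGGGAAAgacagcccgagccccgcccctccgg
PCNA, chr20:5126649-5126706, minus strand: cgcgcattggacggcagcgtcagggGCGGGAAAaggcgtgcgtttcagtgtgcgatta

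Of 50 mitotic (G2/M) genes, 20 were higher with sh1209, 3 were higher with sh1319 and 27 did not pass, with a median of 0.26. CBX5, a heterochromatin protein, stood at 7.74 and 7.83 with sh1209 and 6.32 and 6.11 with sh1319 (1.57 ± 0.12, adjusted p = 3.5e-06). AURKA, a kinase of the spindle poles (0.98 ± 0.12), HJURP, which loads the centromeric histone (0.92 ± 0.11), and KIF2C, a kinesin (0.77 ± 0.13), were higher with sh1209. AURKB (-0.74), G2E3 (-0.71) and TOP2A (-0.62) were higher with sh1319, and CDC20 (0.15), BIRC5 (0.05) and CCNB2 (0.24) did not pass. With arrays scaled to their medians, 7 of the 50 were higher with sh1209 and 4 with sh1319, against 12 and 0 of the 38 S phase genes. Without the first sh1319 array 13 of the 50 were higher with sh1209, and without the first sh1209 array 5 were higher with sh1319.

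Regulators of G1 went both ways (5 of 21 higher with sh1209, 6 higher with sh1319, median 0.01). The 5 became 3 without the first sh1319 or the second sh1209 array, and 2 with arrays scaled to their medians, and the median ranged from -0.075 to 0.058 with an array left out. CDK2 (0.91 ± 0.12), CDK4 (0.61) and RBL2 (0.93 ± 0.14) were higher with sh1209. CCND2 was not detected with shCtrl and stood at 6.18 and 6.29 with sh1209 and 7.73 and 7.95 with sh1319 (-1.61 ± 0.13), though only 1 of its 2 probes passed. CDKN1A, the CDK inhibitor p21, stood at 6.39 and 6.24 with sh1209, 7.52 and 7.28 with sh1319 and 7.06 and 7.10 with shCtrl (-1.09 ± 0.12, adjusted p = 5.4e-05). It is also a p53 target, and of 15 such genes 1 was higher with sh1209 and 5 were higher with sh1319 (median -0.21; the 1 became 0 without the first array of either hairpin or with arrays scaled to their medians), among them CCNG1 (-1.44 ± 0.11), SESN1 (-1.04 ± 0.16), RRM2B (-0.84) and TNFRSF10B (-0.82). FAS, a death receptor, was detected with sh1319 alone, at least 4.11-fold above sh1209. MIA PaCa-2 is known to carry mutant p53. Of 10 genes of the BCL2 family, BAK1 alone passed (-0.96 ± 0.25, adjusted p = 0.014, a call lost without the first array of either hairpin, at -0.76 and -0.88), and BCL2L1 (0.38), MCL1 (-0.15) and BAX (0.35) did not.

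Genes of ribosome production had 10 of 37 higher with sh1209, 2 higher with sh1319 and 25 that did not pass (median 0.27). BOP1, a factor of the large subunit, stood at 10.58 and 10.76 with sh1209 and 9.54 and 9.39 with sh1319 (1.20 ± 0.12, adjusted p = 2.4e-05), followed by GNL3 (1.04 ± 0.11), RRS1 (0.75 ± 0.12), SRM (0.65) and BYSL (0.56). NHP2, a core protein of H/ACA ribonucleoproteins, went the other way at 10.05 and 10.07 with sh1209 and 11.12 and 11.25 with sh1319, and all 4 of its probes passed (-1.12 ± 0.11). Its partners GAR1 (0.43), which was higher with sh1209, and DKC1 (0.25), which did not pass, did not share that direction. The 10 became 6 without the first sh1209 or the second sh1319 array and 5 without the other 2. With arrays scaled to their medians 3 of the 37 were higher with sh1209 and 2 with sh1319, where 720 of all 8642 genes were higher with sh1209.

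Inflammatory genes held the largest differences of any list. Of 15 chemokine, cytokine and inflammasome genes, 1 was higher with sh1209, 8 were higher with sh1319 and 6 did not pass, with a median of -0.52. CXCL5 and BIRC3 are given above. CASP1, the protease that activates interleukin-1 beta, was not detected with shCtrl and stood at 6.89 and 6.71 with sh1209 and 9.77 and 9.69 with sh1319 (-2.93 ± 0.17, adjusted p = 3.7e-07). CXCL2, another chemokine for neutrophils, stood at 5.48 and 5.19 with sh1209, 7.71 and 7.53 with sh1319 and 6.80 and 6.75 with shCtrl (-2.28 ± 0.14, adjusted p = 4.6e-07). CXCL1 (-1.55), IL1B (-0.93), CASP4 (-0.82) and NFKBIA (-0.52) made up the 8. CXCL16 was higher with sh1209 (0.73). CXCL8 (0.37), CXCL6 (-0.22), NFKB1 (0.20) and IL18 (0.16) did not pass. IL32, IL1A, RELB, NFKB2 and CSF3 were detected with sh1319 alone, and AIM2 with sh1209 alone. ALOX5AP, a helper of leukotriene synthesis singled out after its values were seen, stood at 4.86 and 4.44 with sh1209, where 1 of the 2 arrays detected it, and at 8.66 and 8.47 with sh1319.

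NF-kB is a family of transcription factors that drives many of these genes. The letters GGGA and TTCC with any 2 bases between them were searched on both strands in the 250 bases before each start. They were found for 9 of the 15 members of this list with a promoter in the table, beside 1.73% of all genes there. Of these 9 genes, 4 (CXCL1, CXCL2, CXCL5 and NFKBIA) were higher with sh1319 and 3 (CXCL6, NFKB1 and TNFAIP3) did not pass. The other 2, IL32 and NFKB2, were members through sh1319 alone, which fixed their direction. The windows shown are those of the 4 neutrophil chemokines of this set, with the match in capitals and the same conventions as above. CXCL6 carries the letters and did not share the difference of CXCL5.
CXCL5, chr4:73998734-73998793, minus strand: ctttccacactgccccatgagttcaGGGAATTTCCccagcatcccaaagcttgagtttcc
CXCL6, chr4:73836563-73836622, plus strand: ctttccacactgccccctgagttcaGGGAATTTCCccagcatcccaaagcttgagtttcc
CXCL2, chr4:74099239-74099298, minus strand: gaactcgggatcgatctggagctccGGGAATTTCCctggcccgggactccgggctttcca
CXCL1, chr4:73869289-73869348, plus strand: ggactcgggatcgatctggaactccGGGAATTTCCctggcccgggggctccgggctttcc

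Antigen presentation and interferon-inducible genes were also higher with sh1319 where they differed most. Of 15 antigen presentation genes, 0 were higher with sh1209, 7 were higher with sh1319 and 8 did not pass (median -0.36). PSMB8, a subunit of the immunoproteasome, stood at 4.76 and 5.14 with sh1209, 8.03 and 7.76 with sh1319 and 6.12 and 6.19 with shCtrl, and all 3 of its probes passed (-2.95 ± 0.15, adjusted p = 1.3e-07). HLA-B (-1.82 ± 0.14), PSMB9 (-1.72 ± 0.15), HLA-F (-0.79 ± 0.12), TAP1 (-0.75), B2M (-0.70) and HLA-G (-0.49) were the others, and HLA genes are alike enough in sequence that their probes may share signal. Of 21 interferon response genes, 5 were higher with sh1209, 8 were higher with sh1319 and 8 did not pass (median -0.33). The 5 became 2 with arrays scaled to their medians. MX2 (-1.46 ± 0.17), IRF1 (-1.28 ± 0.18), IFI6 (-1.11) and ISG15 (-1.03) were higher with sh1319, and IRF9 (0.81), STAT2 (0.77), IFITM3 (0.74) and IFIT2 (0.71) were higher with sh1209. IRF9 and STAT2 encode parts of the transcription factor that interferon activates.

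Double-stranded RNA can itself set off an interferon response. Of 8 sensors and effectors of double-stranded RNA, 1 was higher with sh1209 (IRF3, 0.68 ± 0.11), 3 were higher with sh1319 and 4 did not pass (median -0.14, or -0.073 without the first sh1209 array). Those higher with sh1319 included IFIH1, a cytosolic sensor that was not detected with shCtrl and stood at 4.69 and 4.71 with sh1209 and 5.71 and 6.04 with sh1319 (-1.18 ± 0.15), and ADAR (-0.53). EIF2AK2 (0.10), MAVS (-0.21) and TBK1 (0.29) did not pass. In the machinery that processes and uses hairpins, 5 of 11 genes were higher with sh1209, 0 were higher with sh1319 and 6 did not pass (median 0.42). AGO2, the AGO protein that cuts, stood at 8.41 and 8.32 with sh1209, 7.74 and 7.55 with sh1319 and 7.96 and 7.93 with shCtrl (0.72 ± 0.14, adjusted p = 0.0029), and AGO1 (0.74 ± 0.16), DROSHA (0.55 ± 0.13), PRKRA (0.52) and RAN (0.42) were the others. The 5 became 2 without the first array of either hairpin and 4 without the second sh1319 array. DROSHA lost its call without either first array (0.47 and 0.50), and AGO1 without the first sh1319 array (0.54). With arrays scaled to their medians 2 of the 11 were higher with sh1209. With every probe in place of the brightest, 5 of 14 were higher with sh1209, 1 was higher with sh1319 and the median was 0.11. DICER1 (-0.08), XPO5 (0.15) and DGCR8 (0.07) did not pass.

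Cholesterol synthesis and uptake genes differed in 1 direction: 0 of 23 genes were higher with sh1209, 15 were higher with sh1319 and 8 did not pass, with a median of -0.72. MSMO1, a sterol oxidase listed as SC4MOL, stood at 7.92 and 8.12 with sh1209, 10.81 and 10.68 with sh1319 and 8.69 and 8.33 with shCtrl (-2.73 ± 0.15, adjusted p = 2.4e-07), although 1 of its 3 probes did not pass (0.07). HMGCS1, an early enzyme of the pathway, stood at 8.48 and 8.54, 10.76 and 10.62, and 8.64 and 8.79 (-2.18 ± 0.12, adjusted p = 3.3e-07). SQLE, which oxidizes squalene, stood at 7.83 and 7.73, 9.54 and 9.63, and 8.41 and 8.29 (-1.80 ± 0.12, adjusted p = 8e-07). For these the sh1319 arrays lay above shCtrl. The sh1209 arrays lay below it past the threshold for SQLE (-0.56, adjusted p = 0.0053) and MSMO1 (-0.49, adjusted p = 0.039), and not for HMGCS1 (-0.21, adjusted p = 0.29). IDI1 (-1.72 ± 0.16), DHCR7 (-1.55), INSIG1 (-1.41) and MVD (-1.38) ran the same way. CYP51A1 (0.04), EBP (0.01), FDPS (-0.39) and SREBF1 (-0.27) did not pass. The letters TCACNCCAC, a form of the sterol element, were searched within 250 bases. They were found for 0 of the 17 of these genes with a promoter in the table, beside 1.09% of all genes there. With arrays scaled to their medians, the count stayed at 15.

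Carbon and stress metabolism differed gene by gene. Of 29 glycolysis and hypoxia genes, 4 were higher with sh1209, 9 were higher with sh1319 and 16 did not pass (median -0.14, or -0.22 without the second sh1319 array). The 4 became 1 without the first sh1319 array, and 2 without the second sh1209 array or with arrays scaled to their medians. SLC2A3, a glucose transporter, stood at 5.42 and 5.23 with sh1209, 8.28 and 8.29 with sh1319 and 9.21 and 9.07 with shCtrl (-2.96 ± 0.11, adjusted p = 2.4e-08). PFKFB4 (-2.43 ± 0.18), SLC16A3, a lactate transporter (-1.77 ± 0.11), and P4HA1 (-1.23 ± 0.13) were also higher with sh1319, while the core enzymes ENO1 (0.19), LDHA (0.20), GAPDH (-0.14) and PKM (-0.08) did not pass. Of 27 ATF4 and unfolded protein genes, 5 were higher with sh1209 and 11 higher with sh1319 (median -0.17), or 3 and 9 with arrays scaled to their medians. The unfolded protein genes HSPA5 (-0.91), MANF (-1.09), HERPUD1 (-1.12) and DNAJB9 (-1.03), together with DDIT4 (-1.85 ± 0.13), were higher with sh1319. EDEM1, another of them, was higher with sh1209 (0.91), and PDIA4 (-0.05), SDF2L1 (0.21) and CRELD2 (-0.19) did not pass. PSPH, an enzyme of serine synthesis (1.31 ± 0.23), was higher with sh1209, as were CBS (0.76) and CTH (0.51), of cysteine synthesis, and SHMT2 (0.56). PHGDH (0.22) and PSAT1 (-0.27), also enzymes of serine synthesis, did not pass. ATF4 itself (0.02) did not pass.

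Of 18 NRF2 genes, 4 were higher with sh1209 and 6 higher with sh1319 (median -0.11, or -0.063 without the first and -0.21 without the second sh1319 array). NQO1, a quinone reductase, stood at 12.08 and 11.95 with sh1209, 10.33 and 10.14 with sh1319 and 12.24 and 12.15 with shCtrl (1.78 ± 0.12, adjusted p = 8.8e-07), and GCLM (1.19 ± 0.14) and TXNRD1 (1.00 ± 0.14) were higher with sh1209 as well. SLC7A11, the cystine transporter, went the other way, at 5.39 and 5.23 with sh1209 and 7.11 and 6.99 with sh1319 (-1.74 ± 0.13), as did FTH1 (-1.0) and ME1 (-0.79), and HMOX1 did not pass (0.03). Respiratory chain genes differed little: 39 of 45 did not pass, 3 were higher with each hairpin, and the median was -0.04. With any of the arrays left out, 1 or 2 were higher with sh1209 and 0 or 1 with sh1319, and with arrays scaled to their medians 1 with each. SDHD stood out among them at 9.74 and 9.84 with sh1209, 8.51 and 8.68 with sh1319 and 10.23 and 10.07 with shCtrl (1.20 ± 0.14, adjusted p = 8e-05), while NDUFB3 (-0.50 ± 0.12) and SDHA (0.46 ± 0.12) differed less. The call of NDUFB3 was lost without the second sh1319 array (-0.46), and that of SDHA without the first sh1319 array (0.43) or the second sh1209 array (0.37).

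Of 17 cancer stem cell markers and aldehyde dehydrogenases, 5 were higher with sh1209, 2 were higher with sh1319 and 10 did not pass (median 0.22, or 0.15 without the second sh1319 array). The 2 became 1 with any of the arrays left out. With arrays scaled to their medians 1 was higher with each hairpin and the median was 0.06. ALDH1A1, the dehydrogenase behind a widely used stem cell assay, was above its shCtrl level of 9.70 and 9.68 with both hairpins, at 12.02 and 12.09 with sh1209 and 12.41 and 12.32 with sh1319, and on this probe the difference did not pass the threshold (-0.31 ± 0.11, adjusted p = 0.064). The dimmer of its 2 probes was higher with sh1319 (-0.59, adjusted p = 0.015). ALDH18A1 (1.27 ± 0.12), CD44 (0.67 ± 0.13), ALDH1B1 (0.66 ± 0.12), ALDH1A3 (0.64) and SOX9 (0.62) were higher with sh1209, and BMI1 (-0.72 ± 0.15) and ALDH3A2 (-0.35) with sh1319. Of 3 CD44 probes 2 passed in this direction, and the lowest stood at -0.21.

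Probes for small noncoding RNAs formed a pattern that was chosen after its values were seen and is described with no test. The values are probe intensities, and which form of each RNA, mature or longer, gave the signal was not examined. They include the spliceosomal U RNAs, 7SK, which restrains transcription elongation, and the small nucleolar RNAs, which guide the modification of ribosomal RNA. Of 147 such probes detected in all 4 arrays, 96 had a higher level with sh1319 and 51 with sh1209, with a median of -0.26. All 10 probes for U RNAs were higher with sh1319, 8 of them by at least 1 (median -2.46). They do not measure 10 distinct RNAs. RNU1-1, RNU1-3 and RNU1-4 are copies of U1, RNU6-1 and RNU6-15P copies of U6, and their probes may share signal. RN7SK stood at 7.17 and 7.28 with sh1209, 10.50 and 10.48 with sh1319 and 5.98 and 5.93 with shCtrl. RNU1-4 stood at 7.69 and 7.90, 10.53 and 10.47, and 7.84 and 8.08, and SNORD3A, the U3 RNA of ribosomal RNA processing, at 6.84 and 7.14, 10.06 and 9.99, and 6.28 and 6.38. For U RNAs and SNORD3A the sh1319 arrays stood apart from all the others.

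The families of nucleolar RNAs were unlike each other. Of 54 C/D box probes, 44 had a higher level with sh1319 (median -0.42). Of 64 H/ACA box probes, 36 had a higher level with sh1209 and 28 with sh1319 (median 0.07, or -0.01 with arrays scaled to their medians), and 12 were higher with sh1209 by at least 1, against 0 of the C/D box probes. SNORA62 stood at 9.40 and 9.52 with sh1209 and 7.29 and 7.26 with sh1319, beside 7.37 and 7.41 with shCtrl, and SNORA21 at 8.94 and 9.21, 7.33 and 7.34, and 6.52 and 6.34. Here the sh1209 arrays were the ones above the rest. In Capan-1 the same 147 probes had a median difference of -0.04 between the hairpins, and 4 of them were higher with sh1319 by at least 1, against 0 with sh1209. The probes were chosen by detection in MIA PaCa-2, and not all were detected in Capan-1. SNORA5A had means of 4.54 with sh1209 and 4.53 with sh1319 there, and was detected in 1 hairpin array. An RN7SK probe had 4.57 and 4.50, and was detected in 2. A small Capan-1 difference of such dim probes does not show equal levels.

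**Figure D4:**
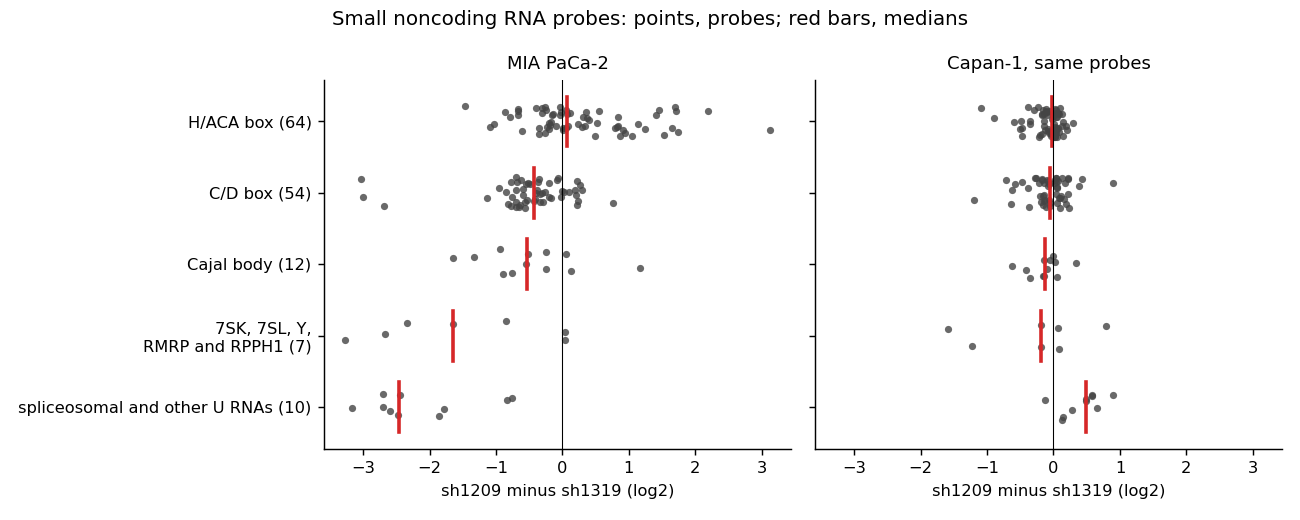
Difference between sh1209 and sh1319 (x axis, log2) of 147 small noncoding RNA probes by family, with the number of probes in parentheses, and with a panel for each cell line; points are probes and red bars family medians. In MIA PaCa-2 the U RNAs have a median of -2.46 and the H/ACA box RNAs spread from -1.46 to 3.13, and in Capan-1 the U RNAs have a median of 0.48. Probes were chosen by detection in MIA PaCa-2, and some were near background in Capan-1.

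The scrambled control was more often near sh1209 than near sh1319. Of the 4496 probes that passed and were detected in all 4 arrays, the mean shCtrl level lay between the hairpins for 2543 (56.6%), above both for 949 and below both for 1004. It was nearer to sh1209 for 2791 (62.1%) and nearer to sh1319 for 1705. Of the 1056 that passed with a difference of at least 1, it was nearer to sh1209 for 65.8%. These positions are a description, since both distances share the shCtrl arrays.

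Capan-1 offered the same pair of hairpins on arrays shared with no MIA PaCa-2 group. Its cells were selected with 1.5 ug/ml puromycin. Its bright PTK2 probe had mean levels of 10.26 with shCtrl, 9.65 with sh1209 and 8.48 with sh1319. The hairpin used and the PTK2 level therefore cannot be told apart in Capan-1. There 2730 probes (11.3%) passed, and the test of whether the hairpin difference itself differed between the cell lines was passed by 3478 probes (14.4%), of which 3052 were members. Of the 3478, 2475 were detected in all 4 MIA PaCa-2 hairpin arrays and in both arrays of a Capan-1 hairpin, so that both lines had a difference to compare. Over 12128 probes detected in all 8 hairpin arrays, the median size of the difference was 0.30 for MIA PaCa-2 against 0.21 for Capan-1, and 962 probes against 197 passed with a difference of at least 1. Over the 16185 members the 2 differences correlated at 0.244 across probes, which are not independent of each other.

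A minority of the calls was shared with the same sign. A probe called in 1 line alone is not thereby shown to differ between the lines. The test of that difference was passed by 3478 probes. Over all probes tested there were 5478 MIA PaCa-2 calls, and 4907 of these were detected in both arrays of a Capan-1 hairpin. The probes that passed in both lines numbered 1163, and 925 of these (79.5%) had the same sign, 472 higher with sh1209 and 453 with sh1319, which is 16.9% of the MIA PaCa-2 calls and 33.9% of the Capan-1 calls. TVP23B, a Golgi protein listed as FAM18B, stood at 9.29 and 9.30 with sh1209 and at 7.32 and 7.38 with sh1319 on the MIA PaCa-2 arrays (1.95 ± 0.13), and differed by 1.82 in Capan-1. HK2, a hexokinase, differed by 1.62 and 2.01 on 1 of its 2 probes, and by 0.74 in MIA PaCa-2 on the other. RAB40B, a small GTPase, differed by -1.53 and -2.17, GNPDA1, an enzyme of amino sugar metabolism, by -1.98 and -1.56, and RNY1, a Y RNA, by -1.65 and -1.58. None of these 5 passed the test of a difference between the lines.

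The genes at the head of the MIA PaCa-2 comparison mostly did not share their size with Capan-1. CALB2 differed by 5.88 in MIA PaCa-2 but by 0.50 in Capan-1, PODXL by 4.56 and 0.03, COXFA4L3 by -4.23 and 0.12, and BIRC3 by -3.35 and -0.10. ATP6V0E1 (2.93 and 1.18), SET (2.85 and 0.96) and POC1A (2.96 and 0.91) passed in both lines with the same sign, though by less in Capan-1. The sign was opposite and past the threshold in both lines for 238 probes. CXCL2 was 4.87-fold higher with sh1319 in MIA PaCa-2 (-2.28) and higher with sh1209 in Capan-1 (3.18, adjusted p = 9.5e-08), and CXCL5 (-3.77 and 0.74), PFKFB4 (-2.43 and 1.35), CDKN1A (-1.09 and 0.87) and DUSP1 (-1.09 and 1.52) also turned. FSCN1 turned the other way (0.41 and -0.75). YES1 (1.36 and 1.55), EGR1 (1.53 and 1.08) and DKK1 (-1.58 and -1.21) kept their direction and did not pass the test of a difference between the lines.

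**Figure D5:**
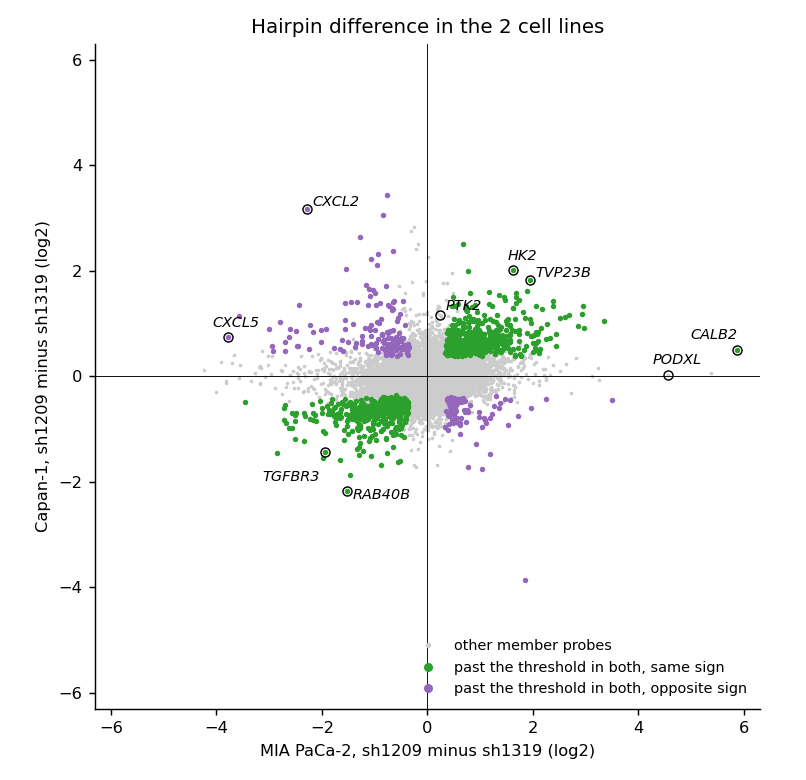
Difference between sh1209 and sh1319 in Capan-1 (y axis, log2) against that in MIA PaCa-2 (x axis, log2), 1 point for each of the 16185 member probes, with selected genes circled and named. Green points passed in both lines with the same sign and purple points with opposite signs; CALB2 and PODXL lie far to the right at 5.88 and 4.56 with Capan-1 values of 0.50 and 0.03.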

How the data were processed

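RNA from 6 groups of 2 samples was measured on 12 arrays of 1 Illumina HumanHT-12 v4 chip, with 500 ng RNA of a RIN of at least 7 each. The authors deposited probe intensities, exported with GenomeStudio 2011.1 per the submitters' processing notes, that were not normalized, each with a detection p-value that the authors' software derived from negative control beads. Samples were grouped by their labels. The 92 spike-in controls of 47320 rows were left out. Background was corrected from the detection p-values (nec in limma 3.58.1, R 4.3.3, offset 16), arrays were quantile-normalized together and log2 values taken. Probes detected at a p-value under 0.05 in at least 2 of 12 arrays were tested (24207). Group means were fitted with lmFit and eBayes on 6 residual degrees of freedom, with Benjamini-Hochberg adjustment over all probes tested, and recovery was tested on simulated data. The number of arrays limits the precision.

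The genes named are PTK2, the 8 largest differences in each direction, the 4 largest in each direction among probes detected with 1 hairpin only, the 6 largest shared with Capan-1, up to 4 per list and 13 genes of earlier text; further list members and those said to be singled out were chosen after their values were seen. The members and lists were chosen with earlier results of these data known. Alternatives were no background correction, an offset of 50, median scaling, normalization within MIA PaCa-2, other probe filters, smaller fits, a replicate block, trended or weighted fits, the methods' t-test, a minimum difference of 1, each array left out and every probe of a list. Promoter and gene names are from RefSeq (GRCh38.p14). The sequences of the hairpins were not used here, and some genes that the rule names or the lists hold are not reported here.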

Additional observations from a re-analysis of the deposited data

Results flagged for a closer look

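The difference between the hairpins in MIA PaCa-2 was set against that in Capan-1 by an interaction term in the same fit (limma, Benjamini-Hochberg adjustment), and 3478 of 24207 probes passed. The values are the MIA PaCa-2 difference minus the Capan-1 difference on the log2 scale, and the genes given passed that test. They were detected in all 4 hairpin arrays of MIA PaCa-2 and in both arrays of at least 1 Capan-1 hairpin, as were 2475 of the 3478 probes. This limit was set after the values were seen. It left out 18 genes picked by the naming rule that were not detected in all 4 MIA PaCa-2 hairpin arrays. Another 9 were left out as not detected in both arrays of either Capan-1 hairpin (SNORA5A, RN7SK, HAS3, COL18A1, COL1A2, MYL9, JAG1, CCND2 and SLC2A3). COL1A2, CCND2 and SLC2A3 were detected in no Capan-1 hairpin array, and the others in 1 or 2. No other kind of irregularity was looked for within groups, since groups of 2 arrays are too small.

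The bright PTK2 probe differed between the lines by -0.93, so cell line and PTK2 difference cannot be told apart in the values given here. Of the genes with the largest differences higher with sh1209, those that differed between the lines were CALB2 (5.37), PODXL (4.53), CMBL (3.95), POC1A (2.05), ATP6V0E1 (1.75) and SET (1.89). The lines also differed in those with the largest differences higher with sh1319, at COXFA4L3 (-4.35), CXCL5 (-4.51), ANXA10 (-2.99), BIRC3 (-3.25), RNU6ATAC (-3.04), CEBPD (-3.31) and SNORD3A (-3.41). With focal adhesion proteins, values were PDLIM1 (-2.34) and FERMT1 (1.65). Among integrins, the difference between the lines was past the threshold for ITGAV (-2.50), ITGA3 (-1.65) and ITGB5 (-1.0). Of collagens, laminins and other matrix, LAMC1 (-1.66) differed between the lines.

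The lines also differed in extracellular proteases and inhibitors, at ADAM10 (-1.47). For epithelial junction and keratin genes, the term passed for CLDN1 (-1.56). In the group of mesenchymal genes it was TAGLN (-2.50), TPM1 (-2.35) and ACTA2 (-1.31). With YAP and TEAD targets, values were WWTR1 (1.48), MYOF (0.85) and ASAP1 (1.24). Among ERK outputs and AP-1, the difference between the lines was past the threshold for SPRY1 (1.24), FOSL1 (1.10) and DUSP1 (-2.61). Of EGF, TGF-beta, WNT and Notch signalling, HES4 (-1.89) differed between the lines. The lines also differed in S phase genes, at GMNN (1.28), UHRF1 (1.79), TYMS (1.78) and CDCA7 (1.94). For G2/M phase genes, the term passed for CBX5 (0.77).

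In the group of G1 cyclins, CDKs and inhibitors it was CDKN1A (-1.96), RBL2 (0.95) and CDK2 (0.75). With p53 targets, values were CCNG1 (-0.90) and SESN1 (-0.81). Among nucleolar and MYC-responsive genes, the difference between the lines was past the threshold for BOP1 (1.28), NHP2 (-1.04), GNL3 (0.66) and RRS1 (0.93). Of interferon response genes, those that differed between the lines were MX2 (-1.11) and IRF1 (-1.36). The lines also differed in double-stranded RNA sensors and effectors, at IFIH1 (-1.30) and IRF3 (0.62). For RNA interference machinery, the term passed for AGO2 (0.87). In the group of antigen presentation genes it was PSMB8 (-3.34), HLA-B (-2.06), PSMB9 (-1.34) and HLA-F (-0.97). With chemokine, cytokine and inflammasome genes, values were CASP1 (-3.43) and CXCL2 (-5.47).

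Among cholesterol synthesis and uptake genes, the difference between the lines was past the threshold for MSMO1 (-2.12), HMGCS1 (-2.58), SQLE (-1.77) and IDI1 (-1.02). Of ATF4 and unfolded protein response genes, those that differed between the lines were DDIT4 (-1.72), SLC7A11 (-1.65) and PSPH (1.32). The lines also differed in NRF2 antioxidant genes, at NQO1 (1.50) and GCLM (1.43). For glycolysis and hypoxia genes, the term passed for PFKFB4 (-3.78), SLC16A3 (-2.31) and P4HA1 (-1.99). In the group of respiratory chain genes it was SDHD (1.01). With BCL2 family, values were BAK1 (-1.56). Among genes of earlier text, the difference between the lines was past the threshold for ITGB1 (-0.66), ALDH1A1 (1.08) and FSCN1 (1.16).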

How the results depend on the processing

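In MIA PaCa-2, the 5433 members called became 3472 with median scaling (1205 higher with sh1209 and 2267 higher with sh1319), 1279 with a minimum difference of 1, 1 by the methods' t-test (5199 at its unadjusted p under 0.05) and 3957 to 4147 with each array left out in turn. The 2730 Capan-1 calls became 1217, 416, 2 and 1281 to 1471 in the same order. The 3478 probes whose difference differed between the lines became 1760 with median scaling, 1408 with a minimum of 1, and 2282 to 2751 with an array left out, the lowest without the first Capan-1 sh1209 array. The dim PTK2 probe (0.59) lost its call with no background correction (0.19), median scaling (0.49), the fit of the 4 arrays or of MIA PaCa-2 alone and the t-test (0.59 in these 3), and ranged from 0.37 to 0.81 with an array left out. Of the 553 list genes, 251 were called, 0 by the t-test (its calls are counted after adjustment), and with every probe in place of the brightest 334 of the probes were called. With an array left out the sign turned for 3 genes, none of them called: ITGB1 ranged from -0.20 to 0.022, MMP1 from -0.088 to 0.38 and HAPLN1 from -0.31 to 0.21. Over 136 gene results, 1964 comparisons kept direction and side of the threshold, 179 lost the call (130 by the t-test), 5 gained it, all for ALDH1A1, and 4 turned. Replicate numbers did not pair the samples (correlation of deviations -0.05 between the hairpins), and the replicate block gave 5224 members and an adjusted p of 0.21 for the bright PTK2 probe. The causes were not tested. Dim probes near background limit what could be called.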
